A study of Homo sapiens with 2 samples.

Results

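The 28S rRNA, the large RNA of the large ribosomal subunit, is covered by 51 of the 142 bins in which reads of the human 45S rDNA were counted. Its bins were chosen by position on the GenBank 45S reference, from the first to the last base of 28S. This rule used no measured value, but earlier results of these data were known. They cover 5035 nt, with a bin size of 100 nt and a last bin of 35 nt, and are numbered here from 1 at the 5' end to 51 at the 3' end. Both libraries come from HCT116 cells, a human colorectal carcinoma line, which were treated with colcemid overnight and so arrested in prometaphase. The cells were lysed with NETN100, and RNA extracted from the NETN100 supernatant (soluble) and from the pellet was sequenced, as 1 library each. No other line, untreated culture or repeat preparation is part of the comparison, and because the counts cover rDNA only, no marker of the cell line could be checked.

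In 28S, a core shared with the ribosomes of bacteria and archaea is interrupted by expansion segments, which are found in eukaryotes and are long and rich in G and C in humans. The core forms the peptidyl transferase centre and the sarcin-ricin loop, at which translation factors act. The large expansion segments ES7, ES15, ES27 and ES39 extend over the surface of the ribosome, and ES27 is a mobile arm near the exit of the nascent chain. The 28S rRNA is cut out of pre-rRNA when ITS2 is removed at its 5' side and the 3'ETS at its 3' side, so reads within 28S can come from mature rRNA or from its precursors.

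The 4 large expansion segments were placed on whole bins from general knowledge of the 28S structure, with earlier results of these data known. ES7 was given 9 bins (positions 401 to 1300), ES15 was given 2 (2101 to 2300), ES27 was given 7 (2901 to 3600) and ES39 was given 2 (4701 to 4900), which is 20 bins and 39.7% of the length. The other 31 bins hold the conserved core together with smaller expansion segments, which bins of 100 nt do not separate. The sequence bears on these limits without use of the counts. In RNA28SN1, an annotated 28S copy at chr21:8441146-8446211 of GRCh38, the 20 bins had a median GC content of 85.0%, with a range from 71.5% to 93%. The other 31 bins had a median of 56.5%, with a range from 45.5% to 77.0%. The copies RNA28SN2 and RNA28SN3 differed from RNA28SN1 at 19 and 33 aligned positions. Inserted or deleted bases, each counted singly, made up 14 and 21 of them. Of the 19 and 33 positions, 17 and 32 lay in the 20 bins of the large expansion segments. ES7 held 7 and 19, ES15 held 7 in each copy, ES27 held 3 in each copy and ES39 held 0 and 3. Both copies had 6 in bin 9 and 7 in bin 22, so their counts may repeat the same differences. RNA28SN1 is 31 nt longer than the 28S on which reads were counted. The counted 28S was not aligned to it, so the offset of a bin from its window in RNA28SN1 is not known exactly. The GC content of the windows placed from the 5' end and from the 3' end differed by a median of 3 percentage points. The largest gap was 15 percentage points, in bin 21.

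Windows of 100 nt are shown for the bins on which the results turn. They are reference sequence of GRCh38 (RNA28SN1 as annotated by RefSeq), 5' to 3' on the forward strand of chromosome 21, and capitals mark runs of 8 or more G and C. Bin 1 is the 5' end of 28S, bin 14 had the lowest pellet to soluble ratio and bin 16 had the most reads outside the large expansion segments. Bin 32 is in the part of ES27 with few reads, bin 48 in ES39 had the most reads of 28S, and bin 50 lies between ES39 and the 3' end.
Bin 1, chr21:8441146-8441245: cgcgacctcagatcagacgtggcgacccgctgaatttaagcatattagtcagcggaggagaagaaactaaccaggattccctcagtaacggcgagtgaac
Bin 14, chr21:8442446-8442545: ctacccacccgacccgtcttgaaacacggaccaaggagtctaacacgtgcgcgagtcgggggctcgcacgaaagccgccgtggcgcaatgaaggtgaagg
Bin 16, chr21:8442646-8442745: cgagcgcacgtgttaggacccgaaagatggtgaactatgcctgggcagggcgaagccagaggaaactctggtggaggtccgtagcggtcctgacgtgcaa
Bin 32, chr21:8444277-8444376: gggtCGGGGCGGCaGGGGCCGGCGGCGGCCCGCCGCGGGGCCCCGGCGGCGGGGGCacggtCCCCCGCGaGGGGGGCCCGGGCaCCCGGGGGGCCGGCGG
Bin 48, chr21:8445877-8445976: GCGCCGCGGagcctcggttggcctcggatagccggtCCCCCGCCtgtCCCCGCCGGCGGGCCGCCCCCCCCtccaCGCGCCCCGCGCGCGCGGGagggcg
Bin 50, chr21:8446077-8446176: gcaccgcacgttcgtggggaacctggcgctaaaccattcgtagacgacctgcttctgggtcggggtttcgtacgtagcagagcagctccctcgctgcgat
The windows of bins 1, 14 and 16 were placed by distance from the 5' end and those of bins 32, 48 and 50 from the 3' end. The windows in the expansion segments are mostly runs of G and C, with 88 of 100 bases in such runs in bin 32 and 60 in bin 48, and longest runs of 42 and 24 bases. No run of this length is found in the 4 windows outside the expansion segments.

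The 28S bins held 3755022 of 6140899 rDNA reads (61.1%) in the soluble library. They held 2368367 of 3564013 (66.5%) in the pellet library. Values in CPM are counts per 1000000 rDNA reads of the library, so a value is a share of rDNA reads. More 28S RNA and less of another rRNA therefore cannot be told apart, nor can less RNA per cell and RNA from fewer cells. Since each fraction is 1 library, no difference between them has a replicate check or a test, and the 95% intervals cover counting error only, since PCR reads are not independent molecules.

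Reads were spread over 28S very unevenly, and in nearly the same way in both libraries. The median bin had 5799 CPM in the soluble and 5754 CPM in the pellet library, while the highest bin had 127848 and 154181 CPM, which in the pellet library is 26.8 times the median. Together, the top 5 bins by reads held 53.3% of the 28S reads in the soluble and 59.4% in the pellet library. They were the same 5 bins in both, namely bins 48 and 49 in ES39, bin 16, bin 3 and bin 18. Of the 10 bins with the fewest reads, 9 were shared. The large expansion segments, which make up 20 of the 51 bins, held 7 of the 10 in the soluble library. In the pellet library they held 8 of the 10. Most of these were bins 31 to 36 of ES27 in both libraries. Over the 49 bins in which both libraries had more than 3 reads, the log10 reads of the 2 libraries had a Pearson's r of 0.97 and a Spearman's rho of 0.98. This is across bins, which share their sequence and the steps of library preparation and counting, and are not independent.

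**Figure D1:**
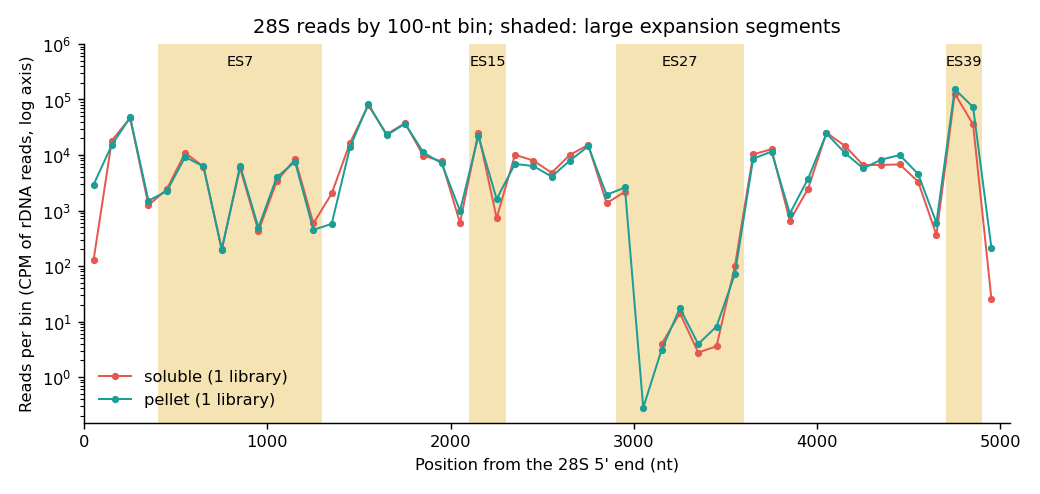
Reads per 28S bin in CPM of rDNA reads (log axis) against the position from the 28S 5' end in nt, for the soluble (red) and the pellet library (teal), with the large expansion segments shaded. Both lines peak in ES39, at 127848 CPM in the soluble and 154181 CPM in the pellet library, and drop below 20 CPM within ES27, and bins at 0 have no point.

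The 4 large expansion segments differed widely in read density. Per 100 nt, ES7 had 4270 CPM in the soluble and 4087 CPM in the pellet library, and ES15 had 12937 and 11760 CPM. ES27 had 330 and 387 CPM per 100 nt, and ES39 had 81761 and 113550 CPM. The other 28S bins had 12565 and 12337 CPM per 100 nt, so ES27 lay far below them, ES7 below them, ES15 near them and ES39 far above them in both libraries.

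As a class, the 20 bins of the large expansion segments held 37.6% of the 28S reads in the soluble library (95% Wilson interval 37.6% to 37.7%) and 43.7% in the pellet library (43.6% to 43.7%). The class had 0.916 times the density of the other bins in the soluble and 1.18 times in the pellet library, so this relative density was higher in the pellet library by 1.28 times (95% interval 1.28 to 1.29). This difference rested on ES39. In the 18 bins of ES7, ES15 and ES27, the density was 0.295 times that of the other bins in the soluble and 0.284 times in the pellet library. Without ES39, the relative density in the pellet library was 0.963 times that in the soluble one, which turns the direction. The median bin of the large expansion segments had 1457 CPM in the soluble and 1919 CPM in the pellet library, against 7683 and 7084 CPM in the other bins.

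The pellet to soluble ratio of CPM was 1.26 in the large expansion segments (95% interval 1.26 to 1.26) and 0.982 in the other 28S bins (0.980 to 0.983). It was 1.39 in ES39 (1.39 to 1.39), 1.17 in ES27 (1.14 to 1.20), 0.957 in ES7 (0.951 to 0.963) and 0.909 in ES15 (0.902 to 0.917). In CPM of rDNA reads, the 28S as a whole was higher in the pellet library only with ES39 included. Its ratio was 1.09 with ES39 and 0.976 without it (0.975 to 0.978). The ratio of the other bins passes 1 when reads are scaled to 18S plus 28S, to 1.04, and so does that of ES7, to 1.02. Such scaling multiplies every ratio by the same factor. The ratio of the 28S without ES39 lies between those of ES7 and the other bins, so it also passes 1 on that scale. Its direction below 1 therefore holds for CPM of rDNA reads only. In CPM of rDNA reads, the ratio of the 18S rRNA, the RNA of the small subunit, was 0.710.

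Bin by bin, most of 28S differed little between the fractions. Of the 49 bins in which both libraries had more than 3 reads, 40 had a ratio within 1.5-fold of 1 in either direction, 25 lay above 1 and 24 below it. A ratio below 1 was found in 30.1% of the 123 bins of the whole rDNA that passed the same minimum, and a ratio above 1 in 69.9%. A ratio above 2 was found in 5 of the 49 bins, against 52.0% of all 123 bins, which include those of the spacers. These 5 were bins 1, 23, 35, 49 and 50. A ratio below 0.5 was found in 1 of the 49 bins, bin 14, and in no other of the 123 bins, which makes 0.813% of them. The median ratio was 1.01 in 28S, with quartiles of 0.854 and 1.35, against 0.736 in the 19 bins of 18S. In the large expansion segments 8 of 19 bins were below 1, with a median of 1.11, and in the other bins 16 of 30 were, with a median of 0.978.

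**Figure D2:**
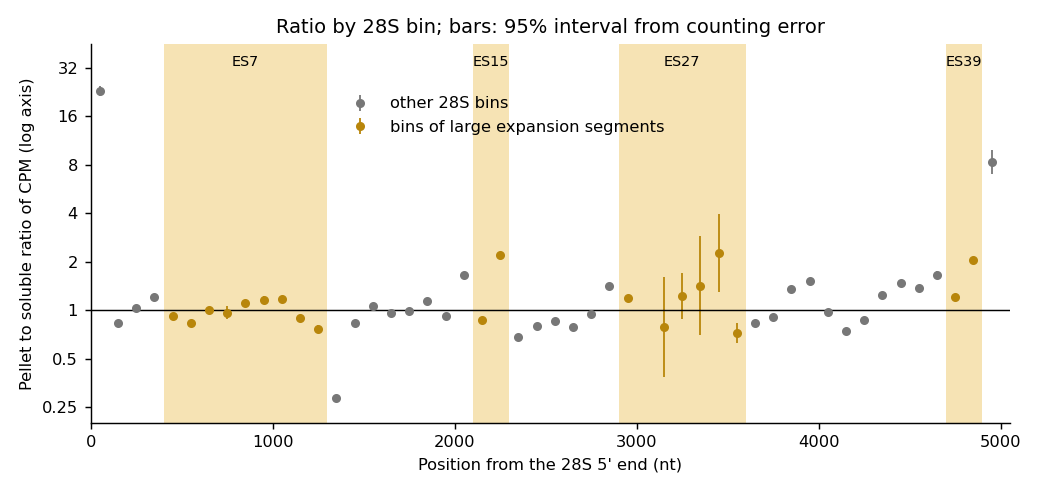
Pellet to soluble ratio of CPM for each 28S bin in which both libraries had more than 3 reads (log axis) against the position from the 28S 5' end in nt, with 95% intervals from counting error. Bins of the large expansion segments are gold, and 40 of the 49 ratios lie within 1.5-fold of 1. The points farthest from 1 are bin 1 at the 5' end (22.99), bin 50, the last bin with reads (8.33), and bin 14 (0.284). Bins 23 (2.21) and 49 (2.04) also lie above 2, and intervals are wide in the thinly covered part of ES27, with bin 35 at 2.27.

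At the 5' end, bin 1 (positions 1 to 100), which includes the stretch that pairs with 5.8S rRNA, had 774 reads in the soluble and 10326 in the pellet library. This is 126 and 2897 CPM, and the ratio was 22.99 (95% interval 21.4 to 24.7). The neighbouring bin 2 had 111864 and 54249 reads, with a ratio of 0.836. The reads thus increased 145-fold from bin 1 to bin 2 in the soluble and 5.25-fold in the pellet library. The last 2 bins of the adjoining ITS2, the spacer between 5.8S and 28S, had ratios of 24.5 (23.5 to 25.6) and 19.7 (17.1 to 22.7), and the interval of bin 1 overlapped both. Bin 3 had 284665 and 169529 reads and a ratio of 1.03, and was among the 5 bins with the most reads.

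ES7, the largest expansion segment of human 28S, followed in bins 5 to 13. Its reads went up and down from bin to bin in both libraries. Bin 6 had 67352 and 32788 reads, bin 8 had 1242 and 695, bin 9 had 35614 and 22969, and bin 10 had 2611 and 1759. The low and the high bins alternated at the same places in the soluble and the pellet library. The highest bin of ES7 was bin 6 with 10968 and 9200 CPM, and the lowest was bin 8 with 202 and 195 CPM. The 9 ratios ranged from 0.765 in bin 13 to 1.18 in bin 11, with a median of 0.964, and none was past 2-fold in either direction.

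Bin 14 (positions 1301 to 1400), which adjoins ES7 on its 3' side, was the bin most depleted from the pellet library. It had 12451 reads in the soluble and 2051 in the pellet library, which is 2028 and 575 CPM. The ratio was 0.284 (95% interval 0.271 to 0.297), so the CPM was 3.52 times as high in the soluble library. The next lowest ratio of 28S was 0.683, in bin 24. The bins on either side did not share this depletion, with ratios of 0.765 in bin 13 and 0.837 in bin 15. Bin 14 had 3.46 times as many reads as bin 13 in the soluble and 1.29 times as many in the pellet library.

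Bins 15 to 20, in the core that follows, held most of the reads of the 5' part of 28S. Bin 16 had 482279 and 295811 reads, bin 17 had 145324 and 80567, and bin 18 had 230008 and 131271. Bins 15 to 18 together held 25.6% of the 28S reads in the soluble and 23.5% in the pellet library, and their ratio was 1.00 (95% interval 0.997 to 1.00). The 6 ratios of bins 15 to 20 ranged from 0.837 to 1.15, and none of them was past 2-fold in either direction.

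The bins of ES15 differed from each other. Bin 22 had 154405 reads in the soluble and 78087 in the pellet library, with a ratio of 0.871. Bin 23 had 4479 and 5736 reads, with a ratio of 2.21 (95% interval 2.12 to 2.29). Most of the reads of ES15 were thus in bin 22, and the sum over the segment hides the ratio of bin 23. Bin 21, on the 5' side of ES15, had 3680 and 3522 reads and a ratio of 1.65, while bin 24, on its 3' side, had 62045 and 24603 reads and a ratio of 0.683. Each of the 5 bins from 24 to 28, between ES15 and ES27, had a lower share of rDNA reads in the pellet library. Their ratios ranged from 0.683 to 0.945 and were not rescaled to another total.

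ES27 was almost without reads in both libraries. Its first bin, bin 30, had 13414 reads in the soluble and 9271 in the pellet library, and its last, bin 36, had 608 and 255. Bin 31 had 0 and 1 reads, bin 32 had 24 and 11, bin 33 had 87 and 62, bin 34 had 17 and 14, and bin 35 had 22 and 29. These 5 bins take up 9.93% of the length of 28S and had 0.0040% of its reads in the soluble and 0.0049% in the pellet library. No difference between the fractions could be read from bin 31, since both counts were at or below the 3 reads that a count of 0 allows (0.489 CPM in the soluble and 0.842 CPM in the pellet library). The 95% intervals of the ratios of bins 32, 33 and 34 included 1. That of bin 35 was 1.30 to 3.95, around a ratio of 2.27 that rests on 22 and 29 reads. The ratio of 1.17 of the whole segment is thus set by bin 30, which held most of its reads and had a ratio of 1.19 (1.16 to 1.22). The segment widened by a bin at each edge had a ratio of 0.948, and the ratio of the median bins was 2.08. The latter sets different bins against each other, bin 32 with 24 soluble reads and bin 35 with 29 pellet reads.

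In bins 37 to 47, between ES27 and ES39, which hold the peptidyl transferase centre and the sarcin-ricin loop, the direction changed more than once along the sequence. Bins 37 and 38 had ratios of 0.835 and 0.906, and bins 39 and 40 had 1.35 and 1.52. Bins 41, 42 and 43 had ratios of 0.972, 0.745 and 0.872. From bin 44 on, all 7 bins up to bin 50 were higher in the pellet library, with ratios from 1.21 to 8.33 and a median of 1.48. Bin 45 had 41532 reads in the soluble and 35558 in the pellet library, with a ratio of 1.48 (95% interval 1.45 to 1.496). Bins 44 to 47 together had a ratio of 1.37 (1.36 to 1.38), so a higher pellet share was also found 5' of ES39. These 4 bins held 2.79% of the 28S reads in the soluble and 3.52% in the pellet library.

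ES39, near the 3' end of 28S, was the most densely covered part of the molecule. It takes up 3.97% of the length and held 26.7% of the 28S reads in the soluble library (95% Wilson interval 26.7% to 26.8%) and 34.2% in the pellet library (34.1% to 34.2%). Bin 48 had 785104 reads in the soluble and 549503 in the pellet library, with a ratio of 1.21 (1.20 to 1.21). Bin 49 had 219067 and 259881 reads, with a ratio of 2.04 (2.03 to 2.06), and was the 1 bin among the 10 with the most soluble reads whose ratio was past 2-fold. Bin 48 thus had 3.58 times as many reads as bin 49 in the soluble and 2.11 times as many in the pellet library. The coverage changed sharply at both limits given to ES39. These limits were set with earlier results of these data known, so the match of the steps to them is not independent. Bin 47 had 2240 and 2153 reads, so the reads increased 350-fold to bin 48 in the soluble and 255-fold in the pellet library. Bin 50 had 158 and 764 reads, which is 1387-fold fewer than bin 49 in the soluble and 340-fold fewer in the pellet library.

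**Figure D3:**
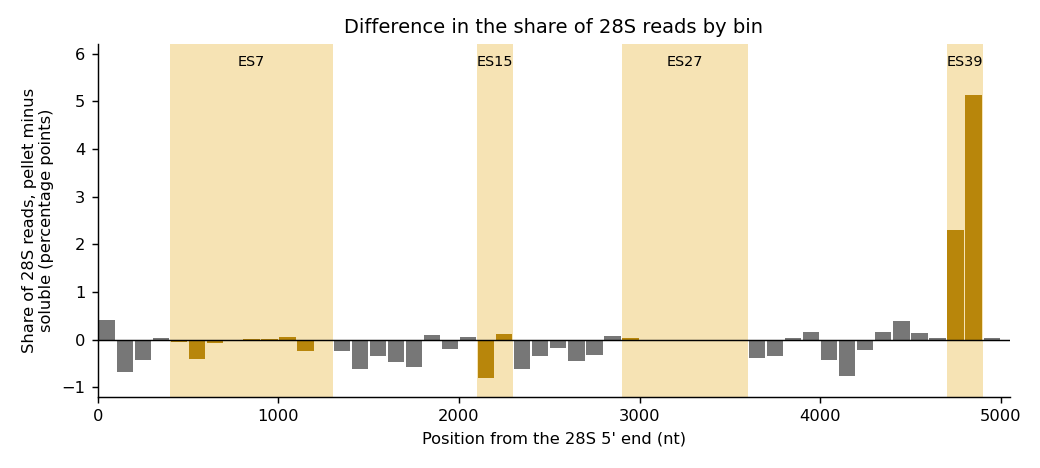
Share of 28S reads of each bin in the pellet library minus that in the soluble library, in percentage points, against the position from the 28S 5' end in nt, with bars of the large expansion segments in gold. The 2 bars of ES39, at 2.29 and 5.14, exceed every other bar, and the lowest bar is that of bin 22 in ES15, at -0.815.

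Counted as shares of the 28S reads, 23 bins had a higher share in the pellet library, 27 had a lower share and 1 had no reads. The gains added up to 9.25 percentage points, of which ES39 had 7.43, or 80.3%. The next highest gains were 0.415 percentage points in bin 1 and 0.395 in bin 45. The losses were spread over many bins, and the difference was -0.815 percentage points in bin 22, -0.755 in bin 42 and -0.688 in bin 2. Shares have a fixed sum, so the gain of ES39 by itself lowers the shares of other bins. Against the 27 bins with a lower share, 24 had a ratio of CPM below 1. The cumulative reads from the 5' end passed 50% in bin 22 in the soluble and in bin 28 in the pellet library. The bins 5' of ES39 held 73.3% of the reads in the soluble and 65.8% in the pellet library.

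By position, the first 10 bins had a ratio of 1.00 (95% interval 0.996 to 1.00) and bins 11 to 20 had 0.995 (0.992 to 0.997). Bins 21 to 30 had 0.879 (0.875 to 0.884), bins 31 to 40 had 0.947 (0.940 to 0.955) and bins 41 to 51 had 1.29 (1.28 to 1.29). As shares of rDNA reads, the first 20 bins were thus nearly the same in both libraries, the middle was lower in the pellet library and the 3' part was higher. Another total would multiply the ratio of every block by the same factor, so their order would stay. Which blocks lie near, above or below 1 depends on the total, and the blocks were not rescaled. The ratio of the 5' part includes bin 1, and that of the 3' part is dominated by ES39.

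At the 3' end, bin 50 (positions 4901 to 5000) had 26 CPM in the soluble and 214 CPM in the pellet library, and a ratio of 8.33 (95% interval 7.02 to 9.89). No read was counted in bin 51, the last 35 nt, in either library. In the 3'ETS, the spacer that follows, 1 read was counted in the soluble and 103 in the pellet library. Bin 1 at the 5' end and bin 50, the last bin with reads, thus had high ratios and few soluble reads. They ranked 43rd and 45th of the 51 bins in the soluble library. In the pellet library they ranked 31st and 43rd.

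In the pellet library, many bins of 28S had no more reads than a spacer. The density of ITS2 was 1946 CPM per 100 nt in the pellet library, and 18 of the 51 bins of 28S lay below it. In the soluble library the density of ITS2 was 82.4 CPM per 100 nt, and 7 of the 51 bins lay below it. The bins of 28S with fewer reads also had a higher median ratio. Of the 24 bins with the lower mean log CPM over both libraries, 17 had a ratio above 1, with a median of 1.22. Of the 25 bins with the higher mean, 8 had a ratio above 1, with a median of 0.922. A ratio above 1 was found in 25 of the 49 bins of 28S and in 69.9% of the 123 bins of the whole rDNA, near the share in the 24 bins. Bin 14 had the lowest ratio among the 24 bins, and bin 49 had the highest among the 25. The part of precursor reads in these ratios was not tested.

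Neither the reads nor the ratio of a bin followed its GC content closely. Over 49 bins, the Pearson's r of GC content with log10 CPM was -0.30 in the soluble and -0.35 in the pellet library, and Spearman's rho was -0.20 and -0.25. With the log2 ratio, r was -0.12 and rho was -0.07. These are descriptions across bins of 1 molecule. The 17 bins with the highest GC content, from 79.0% to 93%, had a median of 2184 CPM in the soluble and 2601 CPM in the pellet library, and all 17 lay in the large expansion segments. The 16 bins with the lowest, from 45.5% to 60.5%, had medians of 6696 and 6994 CPM. The median ratio was 1.16 in the former and 1.13 in the latter, against 0.888 in the 16 bins between them. Bins 48 and 49, with a GC content of 82.0% each, were among the 3 bins with the most pellet reads, while bins 32 and 34, with 93% and 88.5%, were among the lowest.

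**Figure D4:**
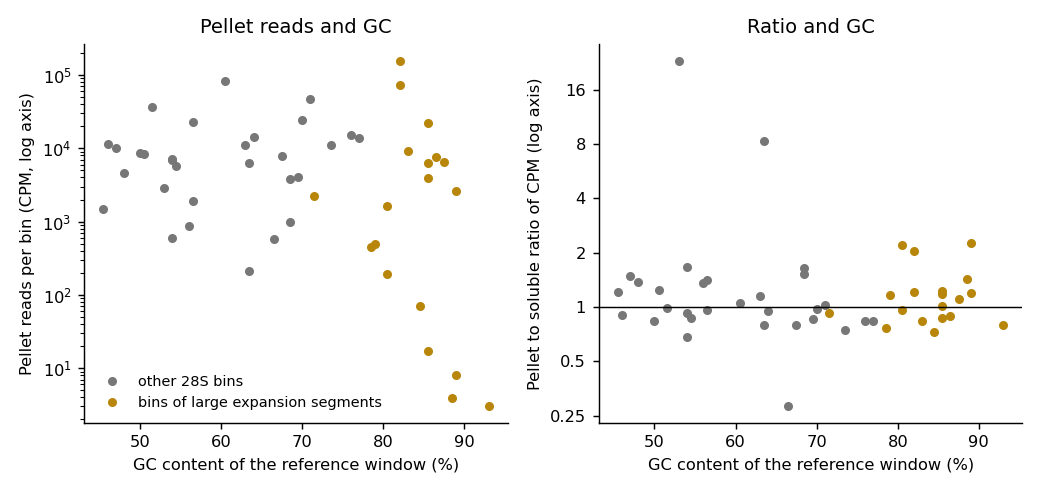
Pellet reads per bin in CPM (left, log axis) and pellet to soluble ratio of CPM (right, log axis) against the GC content in percent of the matching window of RNA28SN1, for the 49 bins in which both libraries had more than 3 reads. Bins of the large expansion segments (gold) lie between 71.5% and 93% GC and span 3.09 to 154181 CPM, while their ratios, like those of the other bins (grey), show no clear trend with GC.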

How the data were processed

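Total RNA of the soluble and the pellet fraction of mitotic HCT116 cells was sequenced (1 library each). The authors trimmed reads with Trim Galore (0.6.6), aligned them with STAR (2.7.8a) to the GenBank 45S rDNA sequence and counted them per bin with featureCounts (2.0.1). These counts were deposited by the authors as they were, without normalization. How reads over more than 1 bin, reads with several alignments and strand were treated is not given in the sources used here. A read that overlaps a bin limit can be lost or repeated by such settings, which bears on short bins and on sharp changes between neighbouring bins.

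Libraries had 6140899 and 3564013 rDNA reads. CPM, ratios and their 95% intervals (log scale), and Wilson intervals of shares were computed from the counts, and a ratio was given for bins in which both libraries had more than 3 reads. A bin was called at a ratio above 2 or below 0.5. The intervals were tried on simulated reads drawn independently of each other, as the intervals themselves assume. That trial therefore does not cover PCR copies or variation between preparations. The bins, the segments and the rule for named bins (every bin of the 4 segments, the 3 bins at each end, and the 5 highest and lowest by reads and by ratio) were chosen with earlier results of these data known. Alternatives were other totals, other limits of the segments, bins left out, medians and minimum reads of 10 and 100. Sequences are of RNA28SN1, RNA28SN2 and RNA28SN3 in GRCh38, aligned with Biopython (1.88). Python (3.11.15), NumPy (2.4.6), SciPy (1.17.1), pandas (2.3.3) and matplotlib (3.10.9) were used.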

Additional observations from a re-analysis of the deposited data

How the results depend on the processing

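The ratio of the large expansion segments, 1.26 as reported, was 1.16 relative to 28S reads, 1.34 relative to 18S plus 28S, 1.33 without bin 48, 1.27 without the edge bins of ES7 and ES27, 1.22 with the segments widened by a bin at each edge and 1.32 with medians. That of the other bins, 0.982 as reported, was 0.903 relative to 28S reads, 1.04 relative to 18S plus 28S, 0.975 without both end bins of 28S, 0.994 with widened segments and 0.922 with medians. The share of 28S reads in the segments in the soluble and the pellet library was 21.1% and 26.6% without bin 48, 37.1% and 43.2% without edge bins and 41.9% and 46.9% with widened segments, and the pellet share was 43.8% without both end bins. The density relative to the other bins, 1.28 times as high in the pellet library, was 1.29 without both end bins, 1.35 without bin 48, 1.29 without edge bins, 1.22 with widened segments and 1.43 with medians. Without ES39, an alternative chosen after seeing the data, the ratio of the segments was 0.946, their shares were 14.9% and 14.4%, and the relative density was 0.963, so each direction turned with ES39.

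Among single segments, the ratio of ES7 was 1.02 relative to 18S plus 28S and 1.18 with medians, and that of ES27, 1.17 as reported, was 0.948 when widened and 2.08 with medians. The median of ES27 fell in different bins of the 2 libraries, with 24 soluble and 29 pellet reads. Counts of bins above 2 (4 to 5) and below 1 (19 to 27) stayed within 1.5 times. The causes of these shifts were not tested, beyond the choice of bins that each alternative names. No paired analysis was possible because there is 1 library on each side and nothing was tested. Variation between preparations is not covered by any interval, and depth limits bins 31 to 35.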
